A study of Homo sapiens with 6 samples.

Results

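The genes described here are 10 transcriptional targets of the ERK pathway that also restrain or relay it: DUSP4, DUSP5, DUSP6, SPRY1, SPRY2, SPRY4, SPRED1, SPRED2, ETV4 and ETV5. They were taken by symbol as members of these families, with earlier results of these data already known, and each had exactly 1 probe set annotated to its symbol alone, so all 10 of 10 entered the analysis among 18417 named genes. RNA came from A673 and SK-N-MC, established lines grown from Ewing tumors, a bone and soft tissue cancer of the young that is driven in most cases by a fusion of EWSR1 with an ETS gene. In each line, 1 culture sample had received a control siRNA, 1 had received siRNA 2 against STEAP1 and 1 had received siRNA 3 against STEAP1, all at 5 nM for 48 h. The control siRNA was a non-silencing one, and whether it was the same in both lines is not stated. STEAP1 encodes a six-transmembrane epithelial antigen found on Ewing tumor cells.

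In the ERK cascade, growth factor receptors activate RAS, which activates RAF, MEK and ERK kinases in turn. Active ERK switches on genes for its own inhibitors, so their RNA is often used as a read-out of the pathway. DUSP proteins remove the activating phosphates from ERK, Sprouty (SPRY) and SPRED proteins act higher up at RAS and RAF, and ETV4 and ETV5 are transcription factors that carry the signal to further genes. A673 is known to carry an activating BRAF mutation, BRAF being one of the RAF kinases. The labels give no genotype, and the BRAF transcript was not analysed here.

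Each sample was measured on 1 Affymetrix array, and values are log2 of the array intensity. Errors of a difference are standard errors (SE) from limma, and a gene was called where its p, adjusted over all 18417 genes, was under 0.05. Across genes, the correlation between arrays was 0.986 to 0.993 within a line and 0.946 to 0.949 between lines. STEAP1 itself, the targeted gene, was at 6.23 (control), 4.53 (siRNA 2) and 4.59 (siRNA 3) in A673 and at 7.15, 4.17 and 4.73 in SK-N-MC, lower in 4 of 4 siRNA arrays (-2.18, SE 0.24, adjusted p = 0.293). Of the Ewing tumor markers, CD99, NKX2-2 and LIPI lay at 5.57 or above in every array and FLI1 at 3.78 to 4.04. The leukocyte marker PTPRC and the endothelial marker VWF lay at 1.43 or below, but CD68, also of the leukocyte list, lay at 3.41 to 4.23 and KRT18 of the epithelial list at 7.53 to 8.57. Summed levels were 4.13 to 4.67 for leukocyte, 7.61 to 8.60 for epithelial and 3.00 to 3.12 for endothelial markers. Of 5 fibroblast markers, 3 were called lower in A673, beside 11.4% of all genes, DCN the most (-2.03, SE 0.25, adjusted p = 0.000568). The summed level of the 5 was 7.18 to 7.79 in A673 and 8.04 to 8.27 in SK-N-MC. Of 9 interferon-inducible genes, 7 were called lower in A673, beside the same 11.4%, with summed levels of 5.88 to 5.96 there and 8.23 to 11.3 in SK-N-MC. The part of either list in the results below was not tested. In such bulk RNA, fewer cells with a transcript and less of it per cell cannot be told apart. Separate cultures are not recorded for the samples of a line, and no combination of line and siRNA has a repeated array. The error behind a p-value here thus comes from differences between siRNA 2 and siRNA 3, from responses that differ between the lines, or from both. Technical spread of the arrays is part of it. How far repeated samples of 1 condition would vary was not measured.

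The first comparison sets A673 against SK-N-MC over all 6 arrays. Of the 10 feedback genes, 9 were called higher in A673 and 0 lower. SPRY1 was the gene that did not pass. Over all genes tested, 13.5% were called higher in A673 and 11.4% lower, or 24.8% in either direction. An unadjusted p under 0.05 was met by the same 9 of the 10, beside 34.1% of all genes. The median difference of the 10 genes was 1.45 on the log2 scale, beside -0.02 over all genes. In 9 of the 10 genes, all 3 A673 arrays lay above all 3 SK-N-MC arrays, which held for 19.4% of all genes. A difference of at least 2-fold together with a call was found for 8 of the 10, beside 4.72% of all genes. With 16 added to each intensity before log2 the count fell to 3, a setting that the 4.72% does not cover. The differences of the 10 genes kept a positive sign under every setting in which each was tested and with any 1 array left out. For the 9 separated genes the sign could not change with 1 array left out or 16 added, as no SK-N-MC array reached an A673 array. For SPRY1 it could, and its difference was 0.12 to 0.61 with 1 array left out. The 10 genes answer to 1 pathway and were measured in the same 6 arrays, so they are not independent observations.

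**Figure D1:**
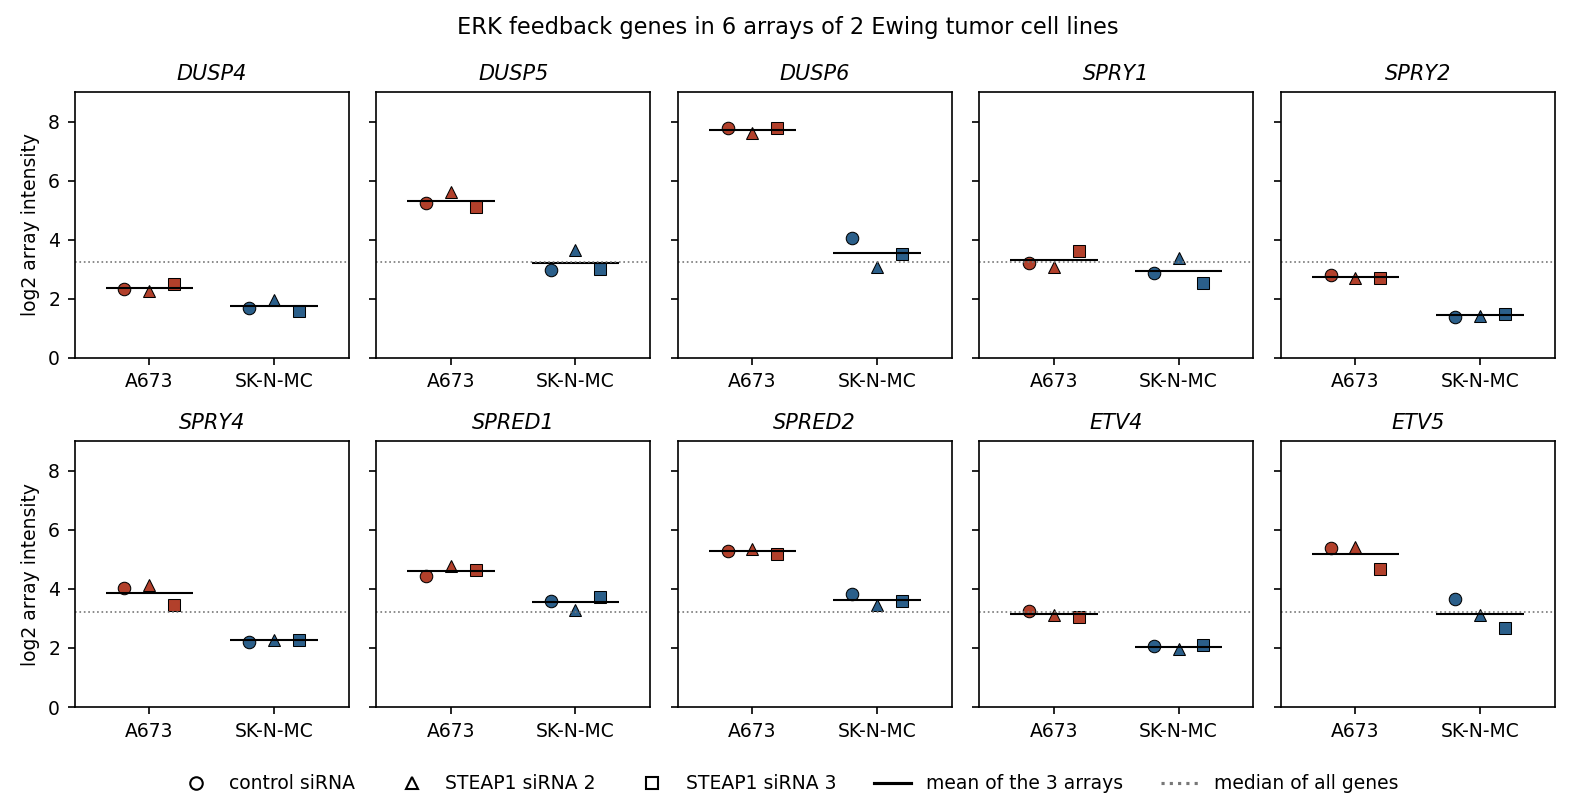
Log2 array intensity (vertical axis) of the 10 ERK feedback genes in A673 (red) and SK-N-MC (blue), 1 point per array, with the mean of the 3 arrays as a bar and the median of all genes as a dotted line. The lines are apart in 9 panels and overlap for SPRY1. DUSP6 shows the widest gap, with A673 arrays at 7.62 to 7.78 and SK-N-MC arrays at 3.06 to 4.06.

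Upstream sequence is shown for 3 genes, to set those of widest difference that have an entry (DUSP6 and SPRED2) beside the gene that was not called (SPRY1). RefSeq sequence for the 250 bases before a transcript start was matched for 6 of the 10 genes (DUSP6, SPRED1, SPRED2, SPRY1, SPRY2 and SPRY4), on GRCh38.p14. Capitals mark GGAA and its reverse complement TTCC, the core that ETS factors such as ETV4, ETV5 and FLI1 bind. All runs are written 5′ to 3′ in the direction of the gene, from chr12:89352502-89352751 on the minus strand (DUSP6), chr2:65432600-65432849 on the minus strand (SPRED2) and chr4:123396545-123396794 on the plus strand (SPRY1).
DUSP6: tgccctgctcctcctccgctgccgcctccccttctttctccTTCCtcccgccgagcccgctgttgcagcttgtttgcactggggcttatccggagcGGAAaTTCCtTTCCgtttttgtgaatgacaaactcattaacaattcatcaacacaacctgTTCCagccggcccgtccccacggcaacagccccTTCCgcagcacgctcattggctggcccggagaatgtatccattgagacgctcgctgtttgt
SPRED2: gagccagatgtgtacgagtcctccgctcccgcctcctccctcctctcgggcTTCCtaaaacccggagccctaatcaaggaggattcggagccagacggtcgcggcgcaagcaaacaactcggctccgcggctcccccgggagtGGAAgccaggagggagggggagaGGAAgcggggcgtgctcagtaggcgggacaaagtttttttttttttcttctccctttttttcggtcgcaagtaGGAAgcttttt
SPRY1: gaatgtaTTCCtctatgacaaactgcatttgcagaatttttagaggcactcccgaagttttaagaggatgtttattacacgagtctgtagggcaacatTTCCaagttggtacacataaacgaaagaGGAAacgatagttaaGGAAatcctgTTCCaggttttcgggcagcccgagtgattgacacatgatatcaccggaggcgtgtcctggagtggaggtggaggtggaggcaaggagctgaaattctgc

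The core occurred 6 times in the DUSP6 window, 4 times in that of SPRED2 and 5 times in that of SPRY1, on either strand. Its 4 letters were present in 92.7% of 35114 RefSeq windows of the same length, with a median of 3 per window, so their presence sets none of these genes apart. In DUSP6, 3 of the 6 cores stood together between 154 and 141 bases before the start. The longer ETS motif CCGGAAG, which contains the core, was found in 8.52% of all windows and in 1 of the 10 windows of these genes, at a second start of SPRY1. The motifs TGACGTCA (bound by CREB, in 1.65% of all windows), TGANTCA (bound by AP-1, in 6.57%) and the doubled core GGAAGGAA (in 3.06%), searched on both strands, were in 0 of the 10. A match is a description of letters and not of binding.

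DUSP6 encodes a cytoplasmic phosphatase with ERK as its main substrate. Its A673 levels were 7.77 (control), 7.62 (siRNA 2) and 7.78 (siRNA 3). In SK-N-MC it lay at 4.06, 3.06 and 3.51 in the same order. The lowest A673 array was thus 3.55 above the highest SK-N-MC array. The difference was 4.18 (SE 0.18, 95% confidence interval 3.76 to 4.60, adjusted p = 2.85e-06), or 18.1-fold, and it ranked 23 among 18417 genes by difference towards A673.

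DUSP5 and DUSP4 encode phosphatases of the nucleus, the first directed at ERK, the second at ERK and the stress kinases. DUSP5 lay at 5.24, 5.60 and 5.11 in the control, siRNA 2 and siRNA 3 arrays of A673, and at 2.99, 3.64 and 2.99 in those of SK-N-MC. Each A673 array was at least 1.47 above each SK-N-MC array, and the difference was 2.11 (SE 0.20, adjusted p = 0.000134), or 4.32-fold. DUSP4 lay at 2.33, 2.27 and 2.50 in A673 and at 1.69, 1.96 and 1.58 in SK-N-MC, below the array median in all 6 arrays. It had the smallest of the called differences, at 0.62 (SE 0.13, adjusted p = 0.00991). The call for DUSP4 was lost without either control array (0.61, adjusted p = 0.0584) and with 16 added to each intensity before log2 (0.13, adjusted p = 0.0515).

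The Sprouty proteins block receptor signalling at or above RAF. SPRY4 lay at 4.02, 4.12 and 3.45 in the control, siRNA 2 and siRNA 3 arrays of A673, and at 2.21, 2.28 and 2.28 in those of SK-N-MC. SPRY2 lay at 2.79, 2.70 and 2.69 in A673 and at 1.39, 1.42 and 1.50 in SK-N-MC. Both genes separated the lines in every array, with differences of 1.61 (SE 0.17, adjusted p = 0.000312) for SPRY4 and 1.29 (SE 0.10, adjusted p = 6.33e-05) for SPRY2. SPRY2 varied little within either line, with a standard deviation of 0.055 over the 3 arrays of each, and was dim, below the array median in all 6 arrays.

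SPRY1 did not follow the other Sprouty genes past the threshold. It lay at 3.21, 3.08 and 3.61 in A673 and at 2.88, 3.38 and 2.54 in SK-N-MC. The SK-N-MC siRNA 2 array stood above 2 of the 3 A673 arrays. The difference was 0.37 (SE 0.23, adjusted p = 0.309), with a 95% confidence interval of -0.15 to 0.89. That interval includes no difference and also the 0.62 measured for DUSP4.

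SPRED proteins hold RAF inactive and, with SPRED1 the best known for it, bring the RAS inhibitor neurofibromin to the membrane. SPRED2 lay at 5.30, 5.34 and 5.18 in A673 and at 3.82, 3.46 and 3.61 in SK-N-MC. SPRED1 lay at 4.44, 4.78 and 4.64 in A673 and at 3.60, 3.28 and 3.74 in SK-N-MC. The groups did not overlap for either gene: SPRED2 differed by 1.64 (SE 0.12, adjusted p = 3.17e-05), or 3.12-fold, and SPRED1 by 1.08 (SE 0.15, adjusted p = 0.00116), or 2.11-fold. NF1, the gene of neurofibromin itself, was called lower in A673 (-0.73, SE 0.15, adjusted p = 0.00893).

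ETV4 and ETV5 belong with ETV1 to the PEA3 group of ETS transcription factors. ETV5 lay at 5.39, 5.43 and 4.68 in the control, siRNA 2 and siRNA 3 arrays of A673, and at 3.67, 3.12 and 2.68 in those of SK-N-MC. The difference was 2.01 (SE 0.21, adjusted p = 0.000271), or 4.03-fold, and the lowest A673 array lay 1.01 above the highest SK-N-MC array. ETV4 lay at 3.26, 3.10 and 3.06 in A673 and at 2.08, 1.96 and 2.10 in SK-N-MC. It differed by 1.09 (SE 0.11, adjusted p = 0.000168), or 2.13-fold. ETV5 varied more within a line than ETV4 did, with standard deviations of 0.42 and 0.50 beside 0.10 and 0.077.

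Many of the 10 probe sets were dim in SK-N-MC. Below the array median lay 6 or 7 of them in each SK-N-MC array and 3 or 4 in each A673 array. No detection calls were used, so the size of a difference that starts from such levels is uncertain. With 16 added to each intensity, which damps low values, 8 of the 10 genes were called. The differences were then 3.02 for DUSP6, 1.14 for DUSP5, 1.06 for ETV5, 0.94 for SPRED2, 0.56 for SPRY4, 0.55 for SPRED1, 0.30 for ETV4 and 0.27 for SPRY2. Only the first 3 of these were still at least 2-fold. With dim genes left out (mean log2 under 4), 5 of the 10 were tested (DUSP5, DUSP6, SPRED1, SPRED2 and ETV5), and all 5 were called. The shares of all genes given above come from the fit with nothing added and dim genes kept. They are no measure for the counts under these settings.

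As a group, relatives of the same families did not lean towards A673. Of 10 relatives measured, 1 was called higher in A673 (10%) and 3 lower (30%), beside 13.5% and 11.4% of all genes. Their median difference was -0.27, and 9 of the 10 differences were negative. In 7 of the 10, all 3 A673 arrays lay below all 3 SK-N-MC arrays, beside 18.5% of all genes. In 1 they lay above, beside 19.4%. The exception was ETV1, the remaining PEA3 member, at 6.06, 5.88 and 5.91 in the A673 control, siRNA 2 and siRNA 3 arrays and at 1.41, 1.49 and 1.48 in SK-N-MC. Its difference of 4.49 (SE 0.11, adjusted p = 1.93e-07) made all 3 PEA3 genes higher in A673. DUSP7, which encodes the closest relative of the DUSP6 phosphatase together with DUSP9, ran the other way. It lay at 5.08, 5.27 and 4.92 in A673 and at 6.47, 6.78 and 6.45 in SK-N-MC (-1.48, SE 0.14, adjusted p = 0.000152). DUSP2 (-1.08, SE 0.17, adjusted p = 0.00211) and DUSP16 (-0.50, SE 0.11, adjusted p = 0.00947), a phosphatase of the stress kinases, were also lower in A673. DUSP1, DUSP8, DUSP9, DUSP10, SPRY3 and SPRED3 were not called, with differences from -0.39 for DUSP9 to -0.09 for DUSP10. Of these, DUSP10, SPRY3 and SPRED3 were dim in both lines. They lay at 1.20, 1.31 and 2.02 in the A673 control array and at 1.17, 1.59 and 2.13 in that of SK-N-MC, beside array medians of 3.24. A small difference at such levels does not show that an expressed gene was unchanged.

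**Figure D2:**
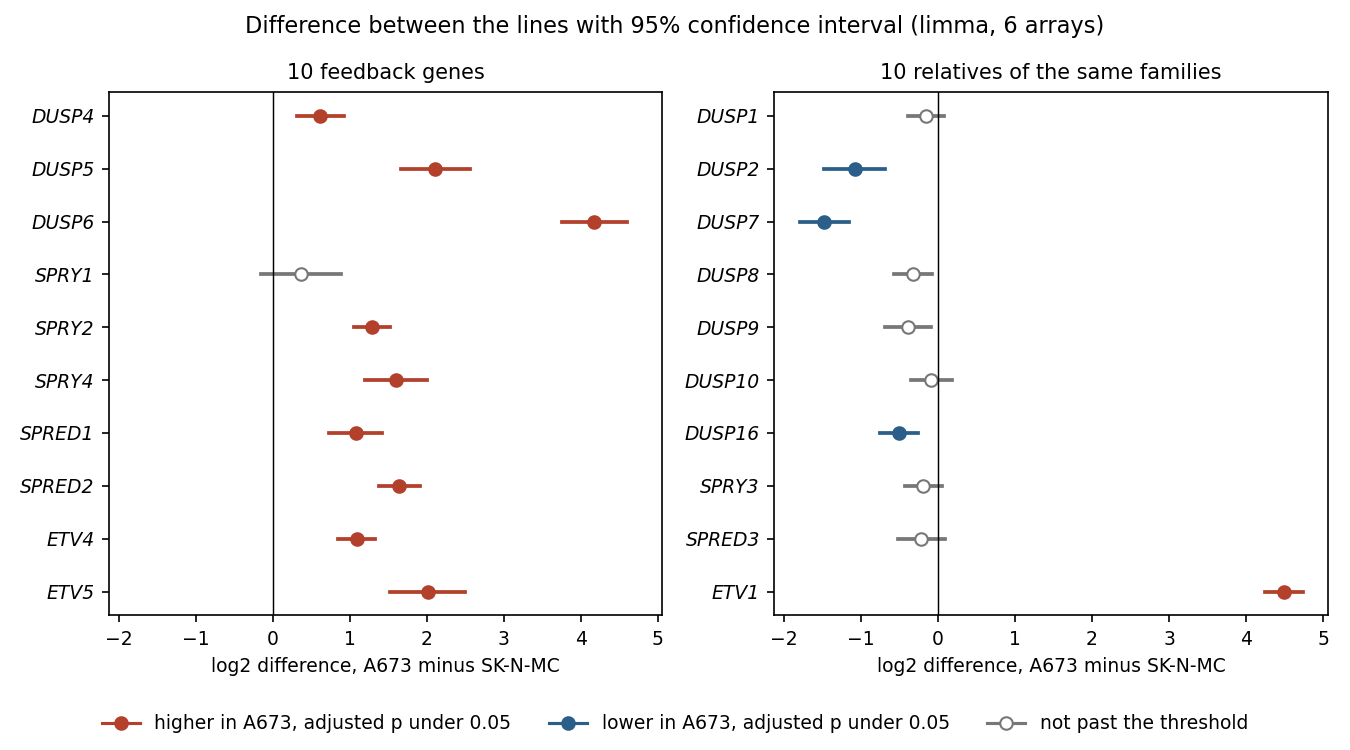
Difference between the lines (horizontal axis, log2, A673 minus SK-N-MC) with its 95% confidence interval for the 10 feedback genes (left) and 10 relatives of the same families (right), from the limma fit over 6 arrays. On the left 9 intervals belong to genes called higher in A673 and that of SPRY1 crosses 0, while on the right ETV1 at 4.49 stands alone on the positive side.

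Other negative regulators of the pathway were mixed. Of 8 measured, 3 were called higher in A673 (37.5%) and 1 lower (12.5%), beside 13.5% and 11.4% of all genes, with a median of 0.41. PEA15, a protein that holds ERK in the cytoplasm, lay at 6.30, 6.50 and 6.30 in A673 and at 4.57, 4.50 and 4.78 in SK-N-MC (1.75, SE 0.12, adjusted p = 2.74e-05). CBL, a ubiquitin ligase for active receptors, differed by 1.25 (SE 0.15, adjusted p = 0.000561), and ERRFI1, an inhibitor of the EGF receptor, by 0.62 (SE 0.13, adjusted p = 0.00891). The lower gene was NF1.

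Genes that ERK activity is known to raise, outside the feedback group, went both ways. Of 20 measured, 7 were called higher in A673 (EMP1, CCND1, KLF6, EGR1, EPHA2, IER2 and PHLDA1) and 4 lower (SPHK1, JUNB, EPHA4 and MYC), with a median of 0.11. These shares were 35% and 20%, beside 13.5% and 11.4% of all genes. EMP1, a membrane protein, showed the widest difference at 3.00 (SE 0.22, adjusted p = 3.81e-05). CCND1, the cyclin that drives entry into the cell cycle, differed by 1.78 (SE 0.14, adjusted p = 6.47e-05). On the other side, the sphingosine kinase gene SPHK1 differed by -1.43 (SE 0.15, adjusted p = 0.000285).

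Upstream of ERK the ligands leaned towards A673 and the receptors towards SK-N-MC in their calls, while both list medians lay near 0, at -0.0021 and -0.15. Of 19 growth factor genes, 5 were called higher in A673 (EGF, HBEGF, PDGFC, FGF2 and NRG1) and 1 lower (IGF1). That is 26.3% and 5.26%, beside 13.5% and 11.4% of all genes. EGF lay at 4.70, 5.38 and 5.20 in A673 and at 2.82, 2.68 and 2.76 in SK-N-MC (2.34, SE 0.16, adjusted p = 2.34e-05). HBEGF, another ligand of the EGF receptor and itself an ERK target, differed by 1.56 (SE 0.14, adjusted p = 0.000116), and IGF1 by -1.38 (SE 0.14, adjusted p = 0.000225). Of 17 receptor tyrosine kinase genes, ERBB4 was called higher in A673 (1.05, SE 0.13, adjusted p = 0.000717) and 5 were called lower (KIT, INSR, FGFR3, ERBB2 and MET). For the receptors these shares were 5.88% and 29.4%. KIT differed by -1.34 (SE 0.12, adjusted p = 0.000134) and INSR by -0.72 (SE 0.12, adjusted p = 0.00276).

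Calls in the cascade itself were split evenly between the lines. Of 15 measured genes from the adaptors down to ERK, 3 were called higher in A673 (MAP2K1, MAPK3 and GAB1) and 3 lower (KSR1, ARAF and SOS1), with differences from -0.58 to 0.76. Each share was 20%, beside 13.5% of all genes called higher and 11.4% called lower. MAP2K1, a MEK kinase, differed by 0.62 (SE 0.12, adjusted p = 0.0064), MAPK3, an ERK kinase, by 0.76 (SE 0.20, adjusted p = 0.0234), and the scaffold gene KSR1 by -0.58 (SE 0.14, adjusted p = 0.0173).

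**Figure D3:**
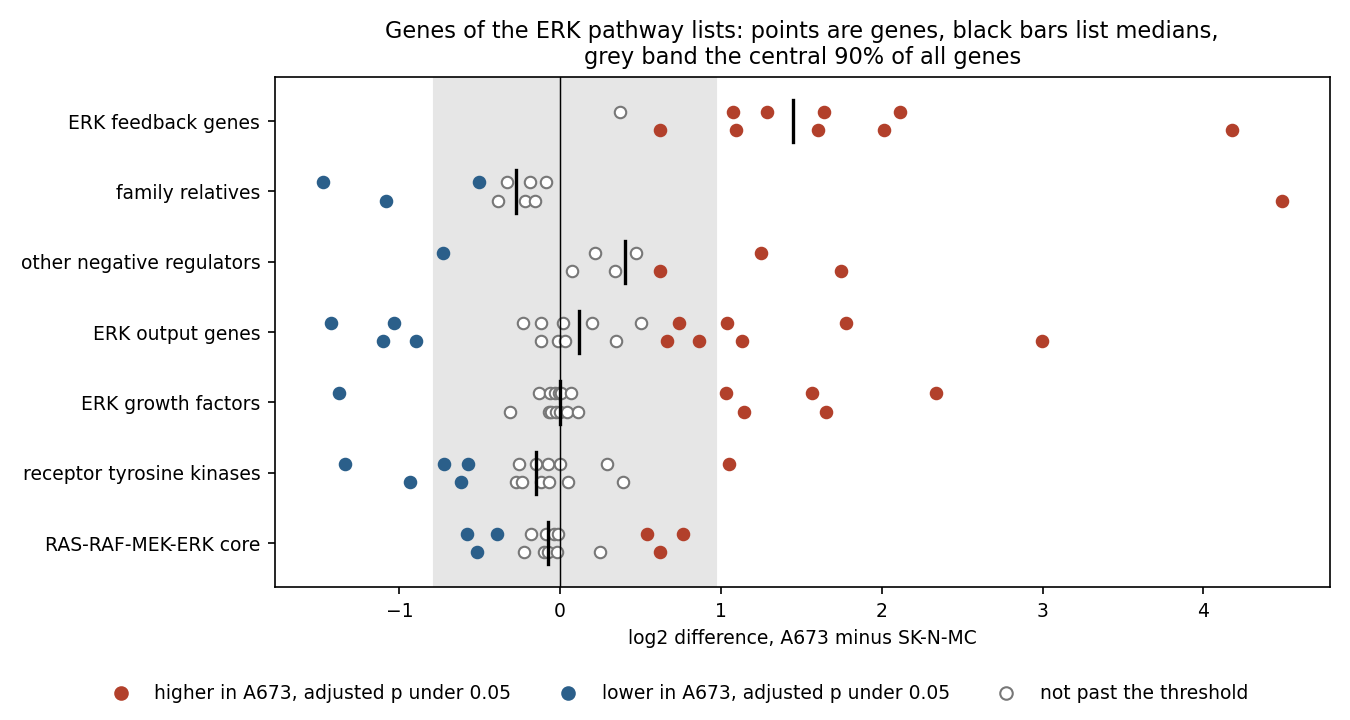
Difference between the lines (horizontal axis, log2, A673 minus SK-N-MC) of each measured gene in 7 ERK pathway lists, with list medians as black bars and the central 90% of all genes as a grey band from -0.78 to 0.97. The feedback genes have their median at 1.45 and 8 of 10 points beyond the band, and the other lists have medians from -0.27 to 0.41. Dim genes are included in every list.

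The next comparison asks whether silencing STEAP1 moved the feedback genes in both lines. limma called 0 of the 10, as it called 0% of all genes. At an unadjusted p under 0.05 stood 1 of the 10 (ETV5), beside 4.63% of all genes. In 0 of the 10 did all 4 siRNA arrays lie on one side of their control array, which 10.6% of all genes did upwards and 11.2% downwards. The median difference of the 10 genes was -0.05, beside -0.01 over all genes, and their 95% confidence intervals left room for changes of up to 1.07 in size (ETV5, from -1.07 to -0.04).

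ETV5 and DUSP6 had the widest differences of the 10. ETV5 was 0.55 and 0.99 below its control in the SK-N-MC siRNA 2 and siRNA 3 arrays, and in A673 it was 0.03 above with siRNA 2 and 0.71 below with siRNA 3. It was thus lower in 3 of 4 siRNA arrays (-0.56, SE 0.23, unadjusted p = 0.0392, adjusted p = 0.989). DUSP6 was 1.00 and 0.55 below its control in SK-N-MC, and in A673 0.15 below with siRNA 2 and 0.01 above with siRNA 3 (-0.42, SE 0.19, adjusted p = 0.989). Leaving out the control array of A673 gave -0.78, and leaving out that of SK-N-MC gave -0.07. For ETV5 the same gave -0.77 and -0.34. The other 8 genes had differences between -0.16 for SPRED2 and 0.22 for DUSP5, and none had an unadjusted p under 0.05.

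Within SK-N-MC, silencing gave no call among the 10 genes, where 0.00543% of all genes were called. DUSP6 differed by -0.78 (SE 0.22, unadjusted p = 0.0108, adjusted p = 0.839) and was the only one of the 10 with an unadjusted p under 0.05, beside 5.12% of all genes. ETV5 differed by -0.77 (SE 0.33, adjusted p = 0.975). SPRED2 was lower in both siRNA arrays as well, by 0.37 and 0.22, and did not pass (-0.29, SE 0.17, adjusted p = 0.993). Both SK-N-MC siRNA arrays lay below their control for 3 of the 10 genes (DUSP6, SPRED2 and ETV5) and above it for 3 (DUSP5, SPRY2 and SPRY4), beside 32.7% and 31.4% of all genes. In the same arrays the 9 interferon-inducible genes had a median difference of -2.59, and 9 of 9 were negative. Their part in the values of DUSP6 and ETV5 was not tested.

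Within A673 limma called 0 of the 10 genes and 0% of all genes, and 0 of the 10 had an unadjusted p under 0.05, beside 3.35% of all genes. Differences ran from -0.34 for ETV5 (SE 0.33) to 0.27 for SPRED1 (SE 0.22). Both A673 siRNA arrays lay below their control for 2 of the 10 genes (SPRY2 and ETV4) and above it for 1 (SPRED1), beside 33.1% and 32.3% of all genes. SPRY4 was 0.10 above its control with siRNA 2 and 0.57 below it with siRNA 3. DUSP6, the gene with the widest gap between the lines, differed from its control by at most 0.15 in either A673 siRNA array.

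Whether the lines responded differently was tested as an interaction, with 0 of the 10 genes and 0% of all genes called, and 0 of the 10 at an unadjusted p under 0.05, beside 3.86% of all genes. DUSP6 differed from control by -0.07 in A673 and -0.78 in SK-N-MC, so A673 minus SK-N-MC was 0.71 (SE 0.32, unadjusted p = 0.0616), with a 95% confidence interval of -0.05 to 1.46. The interval includes no difference between the lines. For ETV5, at -0.34 in A673 and -0.77 in SK-N-MC, it was 0.43 (SE 0.46).

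**Figure D4:**
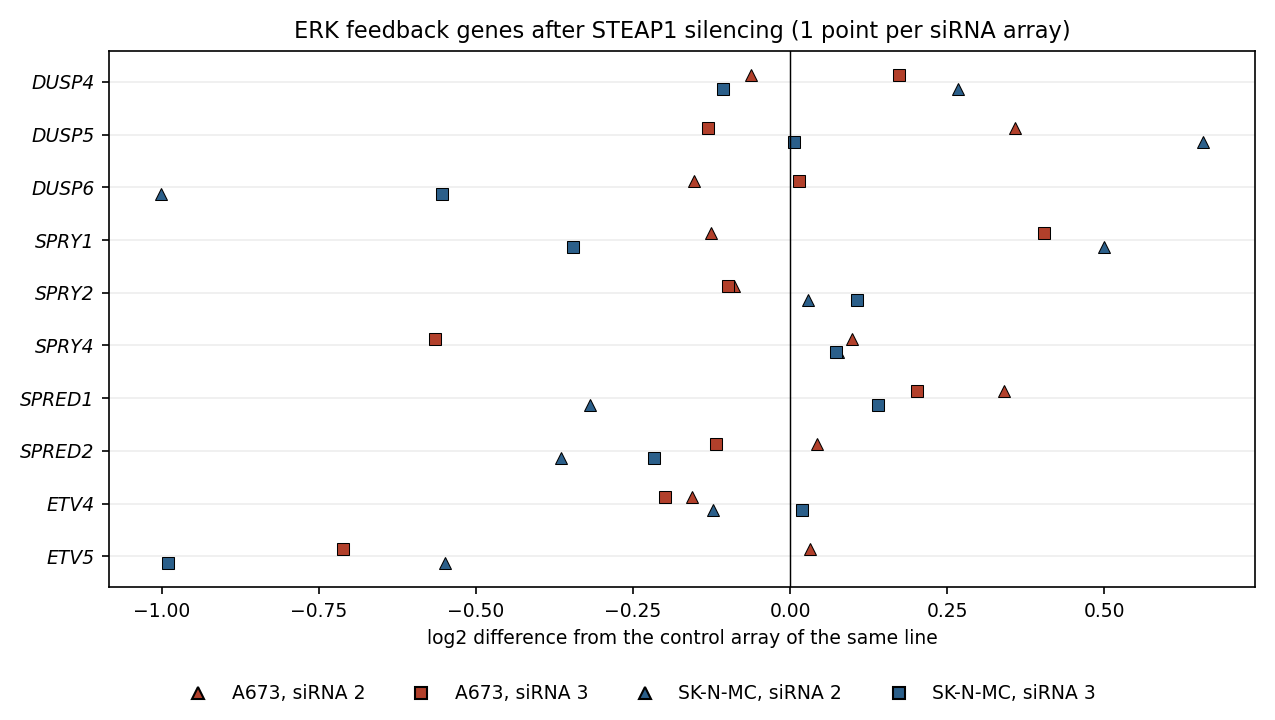
Log2 difference of each siRNA array from the control array of its own line (horizontal axis) for the 10 feedback genes, with siRNA 2 as triangles, siRNA 3 as squares, A673 in red and SK-N-MC in blue. Both points of a line share 1 control array. DUSP6 with siRNA 2 and ETV5 with siRNA 3 lie farthest below 0, both in SK-N-MC, and no gene has all 4 points on one side of 0.

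The last comparison sets siRNA 2 against siRNA 3 and takes the difference between siRNA arrays alone, while all 6 arrays set its error. limma called 0 of the 10 genes and 0% of all genes, while 2 of the 10 had an unadjusted p under 0.05, beside 6.67% of all genes. These were DUSP5 (0.57, SE 0.14, unadjusted p = 0.00399, adjusted p = 0.584) and ETV5 (0.59, SE 0.17, unadjusted p = 0.00776, adjusted p = 0.586). Both were higher with siRNA 2 than with siRNA 3 in each line, with ETV5 at 5.43 and 4.68 in A673 and at 3.12 and 2.68 in SK-N-MC. SPRY4 followed at 0.33 (SE 0.19), which rested on A673: in SK-N-MC it lay at 2.28 with either siRNA. In all, 3 of the 10 genes were higher and 1 was lower with siRNA 2 in both lines, and over all genes these shares were 24.6% and 26.3%.

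Other genes of the ERK lists gave no call after silencing across both lines either, 0 of 89. The smallest p in each list belonged to EGR1 (-0.49, SE 0.12), HBEGF (-0.48, SE 0.15), KIT (0.39, SE 0.13), KSR1 (-0.39, SE 0.15), RASA2 (-0.17, SE 0.11) and DUSP16 (0.13, SE 0.11), each with an adjusted p of 0.989.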

How the data were processed

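Each of 6 cell line samples gave 1 Affymetrix array. The authors deposited linear intensities, summarised by RMA (Expression Console 1.1, per the submitters' processing notes); how they returned to a linear scale is unstated in these sources. Log2 was taken with nothing added. Of 33297 probe sets, 19460 carry 1 symbol, checked against RefSeq gene identifiers (GRCh38.p14), and the brightest probe set per gene left 18417 genes.

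limma 3.58.1 (R 4.3.3) gave two-sided moderated tests with Benjamini-Hochberg adjustment over all genes. One fit with line and silencing terms served the first comparisons (3 residual degrees of freedom). Group means served the within-line and interaction contrasts, and a term per siRNA the contrast of siRNAs (2 each). With a single control per line, control spread is unknown, and so few arrays limit precision. Fits were tested on simulated data.

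Members and gene lists were chosen with earlier results of these data known. Named are all 10 members, STEAP1, genes called between the lines (values for the 3 of smallest p per list) and, per list, the gene of smallest p after silencing. Chosen after values were seen were NF1, DUSP9, DUSP10, SPRY3, SPRED3, BTC, HGF, EGFR, PDGFRA, the cell type markers and the motifs. Of these, BTC, HGF, EGFR and PDGFRA count in their lists but are not described above. DUSP16 was given a value between the lines outside the rule of 3 per list. Alternatives were a second quantile normalization, median centring, 16 added before log2, a mean log2 minimum of 4, the mean of all probe sets, a variance trend, a block on siRNA number and each array left out.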

Additional observations from a re-analysis of the deposited data

How the results depend on the processing

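Between the lines, 64 of 65 values of the 10 genes under other settings kept their direction and side of the threshold. With 1 array left out, 58 of 60 did. The exceptions were all DUSP4 (0.13 with 16 added, 0.61 without either control array). Many of these values could not change direction. The mean of all probe sets, the variance trend, the block and the mean log2 minimum leave each of these line differences as it was. Under them only the error or the adjustment could move a gene across the threshold. With 1 array left out, only SPRY1 could change direction. With a mean log2 minimum of 4, the genes called higher were 5, all that were tested, and 1355 of all genes were lower in place of 2096. Leaving out 1 array gave 1330 to 2120 lower genes. For silencing, genes called lower ranged from 0 to 1 across lines. Within SK-N-MC 0 were lower with 16 added and 5 with a variance trend, and with 1 array left out 0 to 60 were lower and 0 to 1 higher. Genes called higher in the difference of the responses ranged from 0 to 26. Some leave-one-out fits hold 1 array in a group, which is then assumed to vary like the others, and the cause of these shifts was not tested.

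The sign reversed for uncalled values only. SPRY2 across lines was 0.0019 after median centring, and after a second quantile normalization DUSP4 stood at 0.038 in the difference of the responses and SPRED2 at -0.026 between siRNAs. With 1 array left out, the lowest and highest values spanned 0 across lines for DUSP4 (-0.014 to 0.15), SPRY1 (-0.069 to 0.29), SPRY2 (-0.094 to 0.067), SPRY4 (-0.23 to 0.085) and SPRED1 (-0.090 to 0.27). Within A673 they did for DUSP4 (-0.062 to 0.17), DUSP5 (-0.13 to 0.36), DUSP6 (-0.15 to 0.014), SPRY1 (-0.13 to 0.40), SPRY4 (-0.57 to 0.098), SPRED2 (-0.12 to 0.043) and ETV5 (-0.71 to 0.031). Within SK-N-MC they did for DUSP4 (-0.11 to 0.27), SPRY1 (-0.35 to 0.50), SPRED1 (-0.32 to 0.14) and ETV4 (-0.12 to 0.019), in the difference of the responses for DUSP4 (-0.21 to 0.16), DUSP5 (-0.54 to 0.11), SPRY1 (-0.36 to 0.49) and SPRY4 (-0.64 to 0.024), and between siRNAs for DUSP4 (-0.17 to 0.30), SPRY1 (-0.37 to 0.69), SPRY2 (-0.11 to 0.038), SPRED1 (-0.47 to 0.15), SPRED2 (-0.17 to 0.19) and ETV4 (-0.15 to 0.050).

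The numbers 2 and 3 name the siRNA in the silenced samples, the A673 control also carries a 2, and nothing in the labels ties a number to a shared culture or day. The siRNA 2 minus siRNA 3 difference correlated between lines at 0.066 over all genes and at 0.193 over the 7413 genes with a mean log2 of 4 or more; genes are not independent. With a replicate block on that number, 9 of the 10 genes were called higher in A673, 2548 of all genes were higher and 2172 lower, and 0 genes were called for silencing.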
